A study of Mus musculus with 27 samples.

Results

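The major histocompatibility region of the mouse, called H2, was examined as the stretch of chromosome 17 from 33.5 to 37.5 Mb (GRCm38). A position is a single cytosine with a percent methylation, and a position was kept where it was listed in at least 2 of the 3 samples of every strain. By that rule 9638 positions of the region were kept, of 1951655 in the whole genome. The region held 22915 positions listed in any sample, and 8354 listed in all 27.

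Hepatocytes, the parenchymal cells of liver, were taken from 27 female mice aged 12 weeks. Each of 9 inbred strains gave 3 samples labelled as biological replicates: the laboratory strains C57BL/6J, 129S1/SvImJ, DBA/2J, A/J, NZO/HlLtJ and NOD/ShiLtJ, and the wild-derived strains WSB/EiJ, PWK/PhJ and CAST/EiJ. No mouse was labelled as treated or mutant, and no strain served as a control. The study related genetic differences between strains to epigenetic marks, and methylation was read by reduced representation bisulfite sequencing, which covers short fragments cut at CCGG. The p-values below set differences between strains against the spread among the 3 samples of a strain, pooled over the 9 strains. Only methylation was measured in these samples, so the cell type label was not checked against expressed markers.

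The H2 region encodes the class I and class II molecules that present peptides to T cells, together with the transporters and proteasome subunits that supply the peptides. Between the class II genes and the class I gene H2-D1 lies the class III segment, which holds complement, tumour necrosis factor, heat shock and many housekeeping genes. Inbred strains are typed by haplotype here, because whole blocks of the region are inherited together. From general knowledge and not from the labels, 129S1/SvImJ and C57BL/6J both carry haplotype b, and DBA/2J carries d. A/J is a recombinant with k at H2-K1 and class II and d from class III to H2-D1, and NOD/ShiLtJ carries the d allele at H2-K1 and the b allele at H2-D1. No haplotype was set for the other strains.

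The sequences of 4 promoters are shown because the results below turn on them: the start of B3galt4 had the widest span of strain means among gene windows with at least 5 kept positions, those of the classical class I genes H2-K1 and H2-D1 stayed low in every strain, and H2-Q10, a class I gene whose secreted product is made in liver, read higher in a pair of strains. Each line gives the 250 bases before the gene start, 5′ to 3′ on the gene's own strand, from RefSeq (GRCm38.p6), with every CpG in capitals. B3galt4 lies at chr17:33951489-33951738 on the minus strand, H2-K1 at chr17:34000348-34000597 on the minus strand, H2-D1 at chr17:35262844-35263093 on the plus strand and H2-Q10 at chr17:35469839-35470088 on the plus strand.
B3galt4: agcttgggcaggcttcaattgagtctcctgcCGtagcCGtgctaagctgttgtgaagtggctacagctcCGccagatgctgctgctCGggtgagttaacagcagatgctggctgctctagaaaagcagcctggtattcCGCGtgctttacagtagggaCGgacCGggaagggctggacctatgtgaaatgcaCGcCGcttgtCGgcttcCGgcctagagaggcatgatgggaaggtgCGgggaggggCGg
H2-K1: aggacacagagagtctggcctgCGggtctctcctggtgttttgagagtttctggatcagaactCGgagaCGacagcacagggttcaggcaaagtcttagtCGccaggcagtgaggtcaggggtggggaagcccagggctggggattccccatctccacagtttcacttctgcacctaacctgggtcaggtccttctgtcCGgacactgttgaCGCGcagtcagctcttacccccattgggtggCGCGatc
H2-D1: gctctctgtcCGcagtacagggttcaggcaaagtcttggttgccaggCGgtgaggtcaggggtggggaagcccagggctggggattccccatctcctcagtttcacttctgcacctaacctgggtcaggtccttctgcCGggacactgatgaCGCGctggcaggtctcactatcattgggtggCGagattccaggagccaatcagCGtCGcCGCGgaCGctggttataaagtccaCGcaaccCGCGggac
H2-Q10: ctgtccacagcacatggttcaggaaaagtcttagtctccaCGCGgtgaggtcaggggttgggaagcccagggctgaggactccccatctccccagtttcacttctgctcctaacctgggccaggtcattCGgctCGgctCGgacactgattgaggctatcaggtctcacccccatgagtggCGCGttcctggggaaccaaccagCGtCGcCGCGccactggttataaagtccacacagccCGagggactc
The B3galt4 sequence holds 14 CpGs and 16 kept positions, since both strands of a CpG are listed apart. H2-K1 has 9 CpGs and 6 kept positions, and H2-D1 has 14 CpGs and 6 kept positions. H2-Q10 has 12 CpGs and 2 kept positions. Over the promoters of RefSeq in the region, 1799 of 1799 kept positions fell on a CpG of the reference sequence.

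The region was divided by its genes. A proximal segment ran to the end of H2-K1 (1319 positions), class II to H2-Ea (1047 positions), class III to H2-D1 (3970 positions), the D and Q class I genes to H2-Q10 (256 positions), and a distal segment to the end of the region (3046 positions). The D and Q segment was thinly covered across strains: of the positions that every C57BL/6J sample listed there 33.1% were kept, against 83.3% in class III and 72.5% on the other autosomal sequence. A kept position had another kept position at the next base in 78.8% of cases, so neighbouring values are not independent.

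Methylation of the region was bimodal. Of the kept positions, 62.2% had a mean under 10%, 15.03% lay between 10 and 80%, and 22.7% lay above 80%, and on the other autosomal sequence these shares were 62.1%, 11.6% and 26.4%. Over positions listed in all 27 samples the region averaged 26.3% ± 0.635 (SD, n = 27), from 25.2 to 27.5%. The 3 A/J samples averaged 27.3% ± 0.0801 (SD), the PWK/PhJ samples 27.2% ± 0.277, the C57BL/6J samples 25.7% ± 0.120 and the WSB/EiJ samples 25.5% ± 0.270. A/J lay above all C57BL/6J and WSB/EiJ samples (25.2 to 25.8%) and overlapped PWK/PhJ. The strains differed in this mean (permutation test with 100000 resamples, F = 26.8, p = 1e-05, the smallest such a test can give). They also differed after the mean of the other autosomal positions of each sample was taken off (permutation test, F = 7.79, p = 0.00028), from 0.613 points below it in A/J to 1.46 points below it in 129S1/SvImJ.

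The D and Q segment was the lowest of the segments, at 5.68% over all samples against 29.5% in class III, and at 9.09% against 31.9% when every kept position was used. PWK/PhJ was highest there at 9.64% ± 1.40 (SD, n = 3), NZO/HlLtJ followed at 6.61% ± 0.116, and the other strains lay between 4.52 and 5.30%. The lowest PWK/PhJ sample (8.78%) lay above the highest NZO/HlLtJ sample (6.74%). The difference among strains passed the permutation test (F = 29.9, p = 1e-05) over 197 positions. Of the 13 single positions called in this segment, 8 lay at the start of H2-Q10, described below. The segment was not compared without that start, so the difference may not hold for the D and Q genes as a group.

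Gene starts were unmethylated in most cases. A window of 500 bases to either side of a start, or of both ends where the strand was not known, was used with at least 5 kept positions. Of the windows of the region 107 (75.4%) had a mean under 10%, and the median was 0.688%, against 0.811% over all 18230 windows of the genome. Windows were tested where their mean lay at least 2.5 points from 0 and from 100%, by limma's moderated F test with strain as a factor, with Benjamini-Hochberg adjustment over all windows of the genome. A call required an adjusted p under 0.05 together with a span of at least 25 points between the highest and the lowest strain mean. Of 45 windows tested in the region 10 were called, and over the genome 7.83% of tested windows were called.

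**Figure D1:**
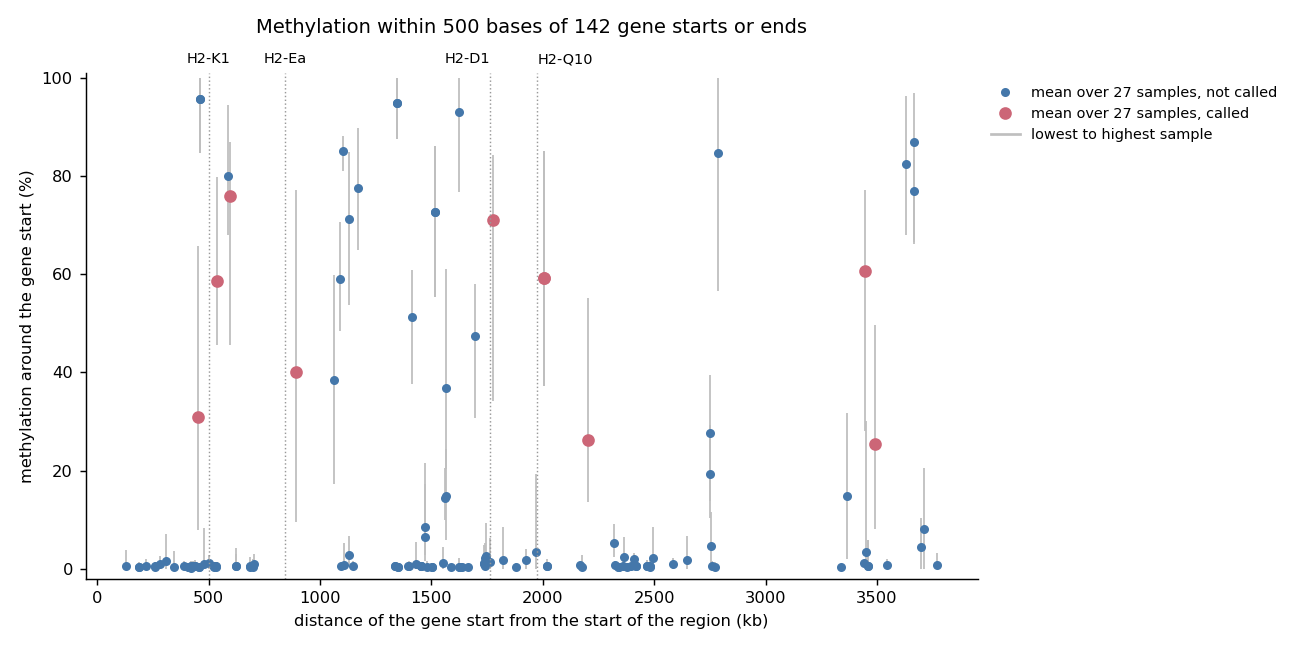
Methylation (%) in windows around gene starts or ends, plotted by their distance from the start of the region in kb, as the mean over 27 samples (points) and the lowest to highest sample (grey lines). Red points mark the 10 called windows, which have intermediate means, and 107 windows lie under 10%; dotted lines mark gene ends that bound the segments.

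The classical class I genes with a window were low at their starts. H2-K1 averaged 1.26% and H2-D1 1.44% over all samples, and the highest single sample was 2.93% at H2-K1 and 6.37% at H2-D1. The 5 genes of peptide supply (Tap1, Tap2, Tapbp, Psmb8 and Psmb9) had windows between 0.263 and 0.959%. Neither list had a window with a mean above 2.5%, so none was tested. Of the 11 class II genes, which are expressed mainly by immune cells, H2-DMa alone had a window, at 0.612%.

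Among the non-classical class I genes 9 of 30 had a window and 1 of the 3 tested was called, against 7.83% of tested windows over the genome. The called gene was H2-M5, with strain means from 13.8% ± 5.12 in NOD/ShiLtJ to 40.3% ± 9.29 in PWK/PhJ (SD, n = 3, adjusted p = 0.0195 by limma). Its span of 26.5 points fell under 25 without NOD/ShiLtJ replicate 2 (23.6 points) or PWK/PhJ replicate 3 (21.8 points), and to 5.66 points with windows of 1000 bases to either side, so this call was not kept under those settings. At H2-Q10 the PWK/PhJ samples read 19.3, 14.5 and 14.3%, the NZO/HlLtJ samples 5.88, 6.72 and 6.96%, and the samples of the other strains at most 3.196%. The 3 groups did not overlap. The span of 15.4 points was under the 25 required for a call, and no p is given because the window reached the mean needed for testing (3.42%) through the PWK/PhJ and NZO/HlLtJ samples. H2-M10.2 was methylated in every strain, at 84.7% on average, with an adjusted p of 0.952.

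Of the windows of the class III lists 15 of 33 were tested and 0 were called by limma, against 7.83% of tested windows over the genome; at this number of windows the shares cannot be told apart. The complement and steroid list had 3 windows of 8 genes, the tumour necrosis factor list 1 of 3, the heat shock list 2 of 3, and the other class III genes 27 of 44. Ltb, a lymphotoxin subunit, read 47.4% with a span of 18.97 points, from C57BL/6J to CAST/EiJ (adjusted p = 0.00479 by limma). Hspa1a, an inducible heat shock protein, read 6.55% with a span of 11.2 points (adjusted p = 0.0193 by limma), and its neighbour Hspa1l read 8.59% with a span of 6.96 points (adjusted p = 0.266 by limma).

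The framework genes, which lie between and around the H2 clusters, held 37 windows, of which 6 were tested and 3 were called. Over the genome 7.83% of tested windows were called. B3galt4, a galactosyltransferase of ganglioside synthesis, had the widest span (52.0 points, adjusted p = 4.79e-12 by limma). Col11a2, a collagen chain of cartilage, ran from 47.9% ± 3.79 in C57BL/6J to 74.2% ± 5.18 in A/J (adjusted p = 8.04e-05 by limma). Pou5f1, the pluripotency factor OCT4, ran from 48.1% ± 10.8 in NOD/ShiLtJ to 79.6% ± 7.92 in PWK/PhJ (adjusted p = 0.00388 by limma), and the lncRNA Gm32362 shares the same 9 positions. Without A/J replicate 2 the span of Col11a2 fell to 23.5 points, under the limit of a call, and with windows of 1000 bases to either side the spans were 20.1 points at Col11a2, 23.8 at Pou5f1 and at Gm4577 and 24.96 at BC051537, all under it. The other called windows were those of the lncRNAs BC051537, Gm4577 and Gm33595 and the pseudogenes Gm15321 and Gm18733, with spans from 26.4 to 39.9 points. The call of BC051537 was lost without WSB/EiJ replicate 3 (adjusted p = 0.0759 by limma) or DBA/2J replicate 2 (span 24.8 points), that of Gm4577 without C57BL/6J replicate 4 (span 23.7 points), and that of Gm15321 without PWK/PhJ replicate 1 (0.0956 by limma) or replicate 2 (0.0673 by limma). Ppp1r11, a protein phosphatase 1 inhibitor, was not called but read higher in 1 strain: the CAST/EiJ samples read 21.9, 17.9 and 30.1%, and every other sample at most 4.37% (span 22.98 points), and no p is given because the window reached the mean needed for testing (3.55%) through these samples.

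Single positions were tested in the same way over the 9 strains. Of 4104 tested in the region 242 were called (5.90%), and over the genome 4.33% of 868537 tested positions were called. The share was 16.4% in the proximal segment, 19.7% of only 66 positions in the D and Q segment, 5.43% in class II, 4.79% in the distal segment and 4.01% in class III. Of the 68 proximal calls 53 lay in the tiles of Wdr46 and B3galt4. Of the 13 calls in D and Q 8 lay at the start of H2-Q10, at positions that reached the mean needed for testing through NZO/HlLtJ or PWK/PhJ. Positions of other segments could also reach that mean through their highest strains, as some at Neu1 and B3galt4 did. With no filter on the mean 203 positions of the region were called. The median span of the 242 called positions was 56.2 points, and over the genome it was 55.3 points. At 95 of the 242 (39.3%) every listed sample of the lowest strain read 0%, and over the genome this share was 27.5%. For 71 of the 242 no other called position lay within 50 bases. Sequences of the strains were not used, so a base change at the cytosine was not tested at any position. A/J was alone the highest strain at 50 called positions, NOD/ShiLtJ at 42 and C57BL/6J at 35, while C57BL/6J and WSB/EiJ were each alone the lowest at 46 and 129S1/SvImJ at 24. Strains tied for the highest mean at 26 called positions and for the lowest at 59. Such counts per strain were not taken over the genome. They include the many neighbouring calls at Wdr46, B3galt4 and Neu1 described below, so they do not describe the region evenly.

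Of the 242 calls, 85 lay in 3 tiles of 1 kb at Wdr46, B3galt4 and Neu1, which are described below. Without these tiles, singled out after their values were seen, 157 of 3989 positions (3.94%) were called. The genome share of 4.33% keeps its own most-called tiles, so the 2 shares are not compared. Over 1 kb tiles with at least 5 kept positions, 27 of 267 tested were called (10.11%), and over the genome 7.76% of tested tiles were called. The strain means of 5 called tiles spanned at least 50 points, 7 called tiles held a gene start, of 33 tested tiles that did, and 3 lay in no gene of RefSeq. These counts were not taken over the genome.

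**Figure D2:**
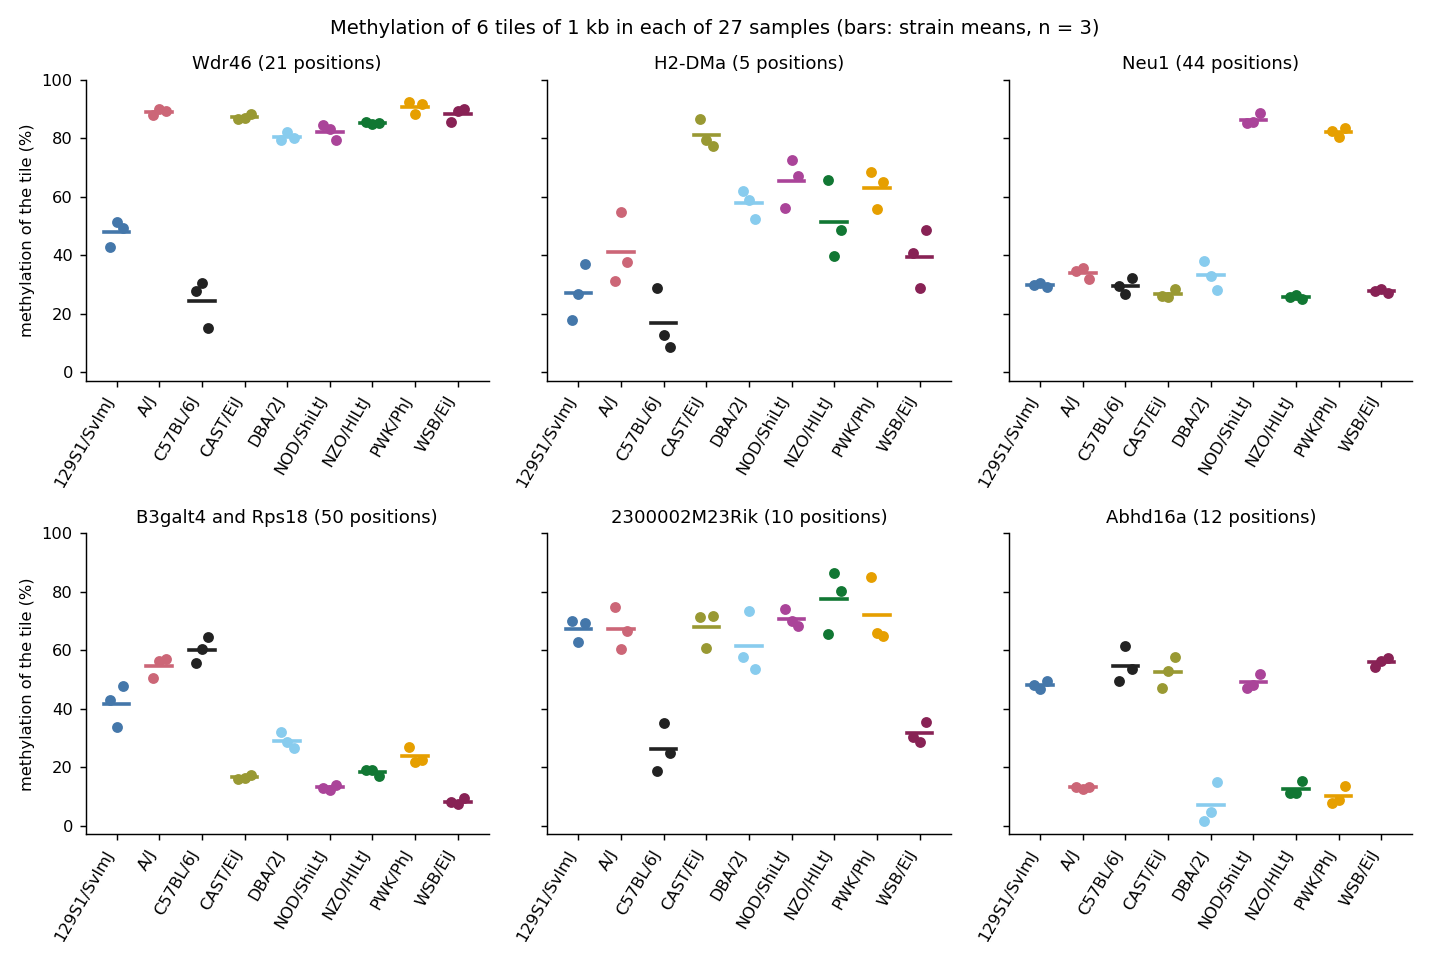
Methylation (%) of the 6 tiles with the widest span of strain means, 1 panel per tile, with 1 point per sample for each of 9 strains and a bar at the strain mean (n = 3). At Neu1 the NOD/ShiLtJ and PWK/PhJ samples lie above 80%, and every sample of the other 7 strains lies below 40%.

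The widest span was in Wdr46, whose product acts in the nucleolus, at chr17:33948001-33949000 with 21 kept positions. RefSeq as used here gives gene spans without exons, so no tile was placed in an exon or intron. The C57BL/6J samples read 27.6, 30.3 and 14.9% and the 129S1/SvImJ samples 42.8, 51.5 and 49.3%. The 21 samples of the other 7 strains read between 79.4 and 92.2%. The 3 groups did not overlap, with C57BL/6J lowest (24.3% ± 8.21, SD, n = 3), 129S1/SvImJ next (47.9% ± 4.51) and PWK/PhJ highest (90.8% ± 2.20), a span of 66.5 points (adjusted p = 1.94e-11 by limma). Of its positions 16 were called.

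The tile that holds the start of B3galt4 and the end of Rps18, a ribosomal protein gene, lies further on, at chr17:33951001-33952000, and held 50 kept positions. Here C57BL/6J and 129S1/SvImJ were among the high strains. C57BL/6J read 55.7, 60.3 and 64.5%, A/J read 50.4, 56.4 and 56.9%, and 129S1/SvImJ read 43.1, 33.6 and 47.7%. DBA/2J read between 26.7 and 31.9% and PWK/PhJ between 21.8 and 26.9%. NZO/HlLtJ, CAST/EiJ and NOD/ShiLtJ read between 12.3 and 19.2%, and WSB/EiJ between 7.32 and 9.36%. C57BL/6J, A/J and 129S1/SvImJ lay above all other strains, and C57BL/6J overlapped A/J. The span was 52.0 points (adjusted p = 2.39e-11 by limma), and 37 positions were called. Some tested positions reached the mean needed for testing through C57BL/6J, A/J and 129S1/SvImJ, such as 33951470, with at most 1.67% in any other strain.

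In the printed B3galt4 sequence 15 of its 16 kept positions were called, and over the genome 4.33% of tested positions were called. The sequence was shown because of the wide span at this start, so a high count follows from that choice and is only a description. At base 139 of the printed sequence, counted from 1 at its 5′ end, the strain means were 91.1% in C57BL/6J, 76.3% in A/J and 70.6% in 129S1/SvImJ, and 9.26% in CAST/EiJ, 12.1% in NOD/ShiLtJ and 15.3% in WSB/EiJ. At base 196 A/J read 93.0% and C57BL/6J 83.0%, while CAST/EiJ read 0%. In the printed sequence of H2-D1, which also holds 14 CpGs, the highest strain mean at any kept position was 6.67% and most were 0%.

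The Neu1 tile had the smallest p of the region. Neu1, a lysosomal sialidase, lies in class III, and the tile at chr17:34934001-34935000 held 44 kept positions of which 32 were called. Some tested positions reached the mean needed for testing through NOD/ShiLtJ and PWK/PhJ, such as 34934289, with 0% in every other strain. NOD/ShiLtJ read 85.2, 85.4 and 88.6% and PWK/PhJ read 82.6, 80.3 and 83.4%. The samples of the other 7 strains read between 24.95 and 38.0%. NOD/ShiLtJ lay above PWK/PhJ, and both lay far above the rest, a span of 60.7 points (adjusted p = 1.38e-13 by limma).

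Within the Neu1 tile the 2 strains stood apart on average over one stretch. Over the 31 positions from 34934027 to 34934506 NOD/ShiLtJ averaged 83.6% ± 2.07 (SD, n = 3) and PWK/PhJ 78.3% ± 1.08, and the other strains lay between 3.39% ± 0.877 in CAST/EiJ and 12.6% ± 4.26 in DBA/2J. Over the 13 positions from 34934677 to 34934779 every strain was methylated, from 77.6% ± 2.15 in C57BL/6J to 93.1% ± 5.02 in NOD/ShiLtJ. The split was chosen after the values were seen, so no test of it is given.

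**Figure D3:**
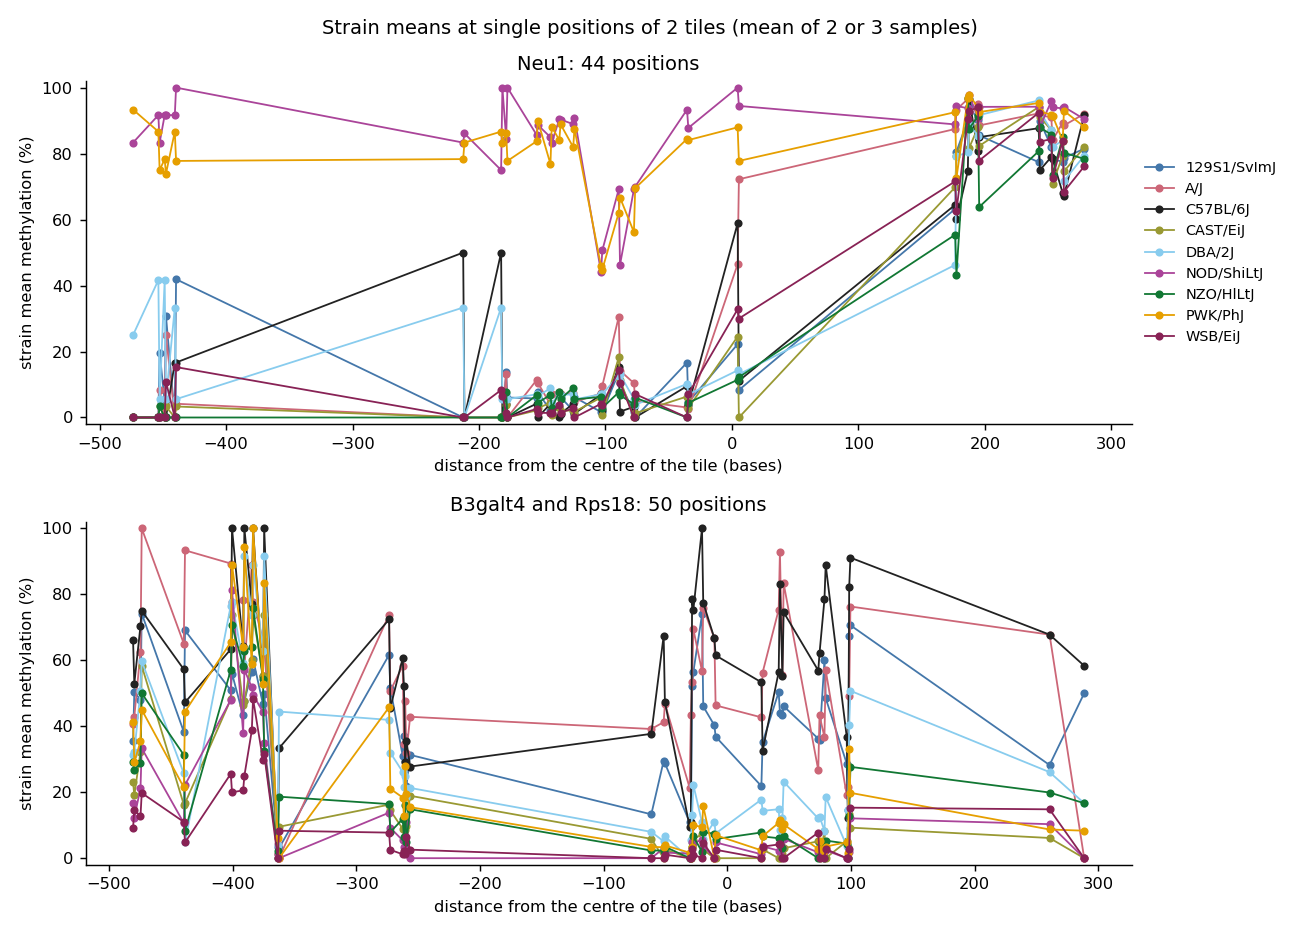
Strain means (%) at each kept position of the Neu1 and B3galt4 tiles by distance from the centre of the tile in bases, 1 line per strain. In Neu1 the NOD/ShiLtJ and PWK/PhJ lines lie above the others over most of the first 31 positions, and all strains are methylated over most of the last 13; in B3galt4 the C57BL/6J, A/J and 129S1/SvImJ lines lie highest over most positions.

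Abhd16a, a lipid hydrolase of class III, split the strains otherwise. In the tile at chr17:35090001-35091000 (12 positions) A/J, DBA/2J, NZO/HlLtJ and PWK/PhJ read between 1.47 and 15.3%. The other 5 strains read between 46.6 and 61.4%, and the groups did not overlap. These levels average 2 unlike stretches, which were read off after the values were seen. From 35090006 to 35090138 every strain mean lay between 0 and 25%. From 35090956 to 35090999 the means of the 5 strains lay between 37.7 and 100%. Those of A/J, DBA/2J, NZO/HlLtJ and PWK/PhJ lay between 0 and 42.7% there. The lowest strain was DBA/2J at 7.04% ± 7.04 and the highest WSB/EiJ at 56.0% ± 1.57 (SD, n = 3), a span of 48.9 points (adjusted p = 1.46e-09 by limma).

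The tile in H2-DMa, which encodes a chaperone that loads peptides onto class II molecules, lies at chr17:34129001-34130000, inside the RefSeq span of the gene and outside the unmethylated window. It held only 5 positions. C57BL/6J read 28.6, 12.6 and 8.62% and CAST/EiJ read 86.6, 79.4 and 77.4%. 129S1/SvImJ overlapped C57BL/6J, and no sample of another strain reached those of CAST/EiJ, with a span of 64.5 points (adjusted p = 1.42e-05 by limma).

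At 2300002M23Rik in the distal segment (chr17:35568001-35569000, 10 positions) C57BL/6J read 18.7, 35.0 and 25% and WSB/EiJ read 30.4, 28.8 and 35.5%. The samples of the other 7 strains read between 53.5 and 86.3%, so that both stood below the rest (span 51.2 points, adjusted p = 1.70e-05 by limma). Here 129S1/SvImJ, at 67.4% ± 4.06 (SD, n = 3), did not share the level of C57BL/6J.

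The complement gene C4b had a tile of 6 positions with means from 34.0% in NZO/HlLtJ to 79.1% in NOD/ShiLtJ (adjusted p = 2.47e-05 by limma). In the tile of Tnxb, an extracellular matrix glycoprotein, DBA/2J read 25.5% ± 11.2 and C57BL/6J 69.4% ± 14.3 (6 positions, adjusted p = 0.0177 by limma), and without C57BL/6J replicate 4 the adjusted p was 0.0503. The tiles of the pseudogenes Gm18733 and Gm15321 spanned 39.9 points each (adjusted p = 0.00288 and 0.0352 by limma). The call of Gm15321 failed on omission of any 1 of 7 samples (129S1/SvImJ replicate 1, NZO/HlLtJ replicate 2, PWK/PhJ replicates 1 and 2, WSB/EiJ replicates 2, 3 and 4), with adjusted p up to 0.129 over all settings. It also failed with an offset of 1 (adjusted p = 0.0542 by limma) and with no filter on the mean (0.0507 by limma). With no filter on the mean the window of Gm15321 lost its call as well (0.0596 by limma). With 1 sample left out the spans of both pseudogene tiles ran over the same ranges as those of their gene windows. The ranges were 33.8 to 46.0 points at Gm15321 and 35.7 to 44.5 points at Gm18733, so tile and window are not separate support.

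Strain pairs were compared with the spread shared over all samples and p adjusted over all positions of the genome for each pair. Pairs without CAST/EiJ and PWK/PhJ differed more in the region than elsewhere in 20 of 21 cases, with a median share called that was 2.90 times that of the genome. For the 15 pairs with CAST/EiJ or PWK/PhJ the median ratio was 1.03. Without the 3 tiles at Wdr46, B3galt4 and Neu1 these medians were 1.67 and 0.663, against genome shares from which no tile was taken out. Pairs that share a strain are not independent, and no test of these ratios is given.

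The pair with the fewest calls was 129S1/SvImJ and C57BL/6J, which share haplotype b. It had 12 called positions (0.292%), and over the genome 0.376% of positions were called in this pair. The other extreme was C57BL/6J against PWK/PhJ, with 125 calls (3.05%, and 1.87% over the genome). The median over the 36 pairs was 53.5 calls. Without C57BL/6J replicate 2 the count of 129S1/SvImJ and C57BL/6J was 29, with an offset of 1 it was 7 and on untransformed percent 28. The rank among the 36 pairs was not recomputed under these settings. By segment this pair had 1 call in 415 tested positions proximal (0.241%), 0 in 350 in class II and 2 in 1894 in class III (0.106%). It had 0 in 66 in D and Q and 9 in 1379 distal (0.653%). With so few positions tested, the counts of 0 or 1 cannot be told apart from the genome share of 0.376%. With 1 sample left out the calls ran from 1 to 4 proximal, 0 to 2 in class II, 2 to 11 in class III and 6 to 13 distal. DBA/2J and NZO/HlLtJ came next with 14 calls (0.341%, and 0.244% over the genome), although no haplotype was set for NZO/HlLtJ.

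The tile means of the pair that shares haplotype b lay apart at some tiles with wide spans. 129S1/SvImJ and C57BL/6J, both low at Wdr46 and both high at B3galt4, differed there by 23.6 and 18.7 points without overlap of their samples. No test of this pair by tile is given. Of its 12 called positions only 1 lay in the tiles at Wdr46, B3galt4 and Neu1. Over all kept positions the mean absolute difference of the pair was 4.38 points in the region and 4.26 points elsewhere on the autosomes, and by segment it ran from 1.59 points in D and Q to 4.91 points in the distal segment. Among the 36 pairs it ranked 6 from the lowest over the region, 1 in class II (3.23 points) and 24 in the distal segment.

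Pairs that share an allele over part of the region were read by segment. A/J and DBA/2J, which share d from class III to H2-D1, had 34 calls (0.828%, and 0.391% over the genome), with 13 calls at an offset of 1 and 56 on untransformed percent. Of the 34, 4 lay in class III (0.211% of tested positions there), where the median pair had 15.5. The medians here are over all 36 pairs, including those with CAST/EiJ or PWK/PhJ, which had genome shares of 1.35 to 1.87%. Pairs for which no shared allele was set had as few calls in class III: A/J and NZO/HlLtJ had 2, DBA/2J and NZO/HlLtJ 3, and 129S1/SvImJ and NZO/HlLtJ 4. DBA/2J and NOD/ShiLtJ, which share the d allele at H2-K1, had 49 calls (1.19%, and 0.319% over the genome). Of the 49, 3 lay in the proximal segment (0.723% of tested positions there), where the median pair had 12.5, and 37 in class III (1.95%). Again other pairs had as few proximal calls, with 0 for NZO/HlLtJ and PWK/PhJ, 1 each for DBA/2J with NZO/HlLtJ and with PWK/PhJ, and 2 each for NOD/ShiLtJ with the same strains. NOD/ShiLtJ, which has the b allele at H2-D1, had 89 calls against C57BL/6J (2.17%, and 0.418% over the genome) and 56 against 129S1/SvImJ (1.36%, and 0.311% over the genome). In each of these NOD/ShiLtJ pairs 28 of the calls lay in class III. The tiles at Wdr46, B3galt4 and Neu1 held 70 of the 89 calls and 43 of the 56, with 45 and 17 calls proximal. For DBA/2J and NOD/ShiLtJ they held 27 of the 49. Of these tiles only Neu1 lies in class III, so most class III calls of the 3 pairs lay in that tile. The D and Q segment, with 66 tested positions, had 1 call in C57BL/6J with NOD/ShiLtJ and 0 in 129S1/SvImJ with NOD/ShiLtJ. It had 0 also in pairs not set to share H2-D1, such as A/J with C57BL/6J and 129S1/SvImJ with DBA/2J. A/J and NOD/ShiLtJ, not set to share an allele, had 64 calls (1.56%, and 0.302% over the genome). Of the 64, 2 lay in the distal segment (0.145% of tested positions there), where the median pair had 12. With 1 sample left out this distal count ran from 0 to 5. Without the 3 tiles 129S1/SvImJ and C57BL/6J had 11 calls, tied with A/J and NOD/ShiLtJ for the fewest, and DBA/2J and NZO/HlLtJ had 12. The other counts were 22 for A/J and DBA/2J, 22 for DBA/2J and NOD/ShiLtJ, 19 for C57BL/6J and NOD/ShiLtJ and 13 for 129S1/SvImJ and NOD/ShiLtJ.

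**Figure D4:**
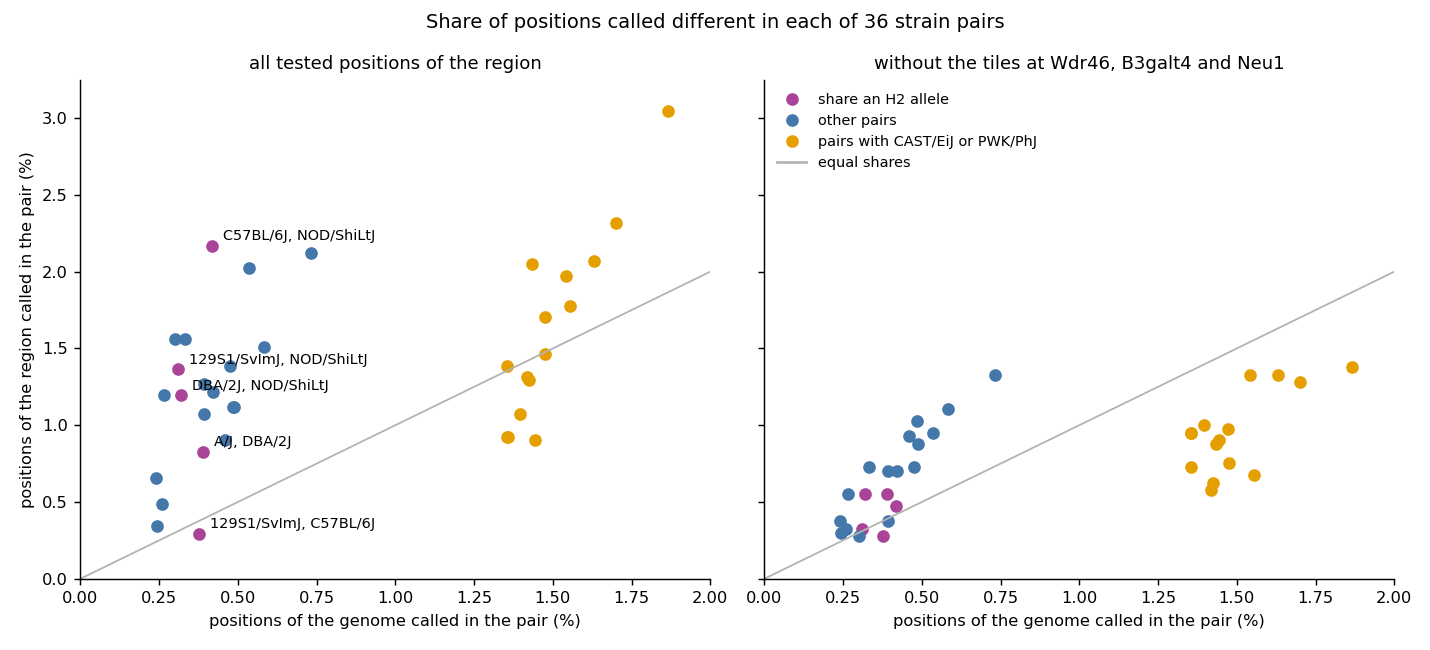
Share of positions called (%) in the region against the share over the genome, 1 point per strain pair, with all tested positions (left) and without the tiles at Wdr46, B3galt4 and Neu1 (right). Purple points are the 5 pairs that share an H2 allele; of pairs without CAST/EiJ and PWK/PhJ 20 of 21 lie above the line of equal shares on the left.

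Which positions were listed at all also differed between strains. A listing gap was counted where a position was listed in all 3 samples of one strain and in none of another. The lists give no coverage, so a position may be missing for want of reads or of a CpG, and these cannot be told apart position by position. The lists were not limited to CpGs of the reference: of promoter positions over the genome listed in all samples of a strain and in no C57BL/6J sample, 29.0 to 34.2% did not fall on a CpG of the C57BL/6J sequence, against 0.0465% of those that every C57BL/6J sample listed.

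C57BL/6J listed 12475 positions in all of its samples, and 129S1/SvImJ lacked 3.24% of them, against 4.17% on the other autosomal sequence. WSB/EiJ lacked 9.47% (5.48% elsewhere), NOD/ShiLtJ 8.17% (4.05%), A/J 7.85% (3.85%), NZO/HlLtJ 6.85% (3.76%) and DBA/2J 6.07% (4.09%). In the wild-derived CAST/EiJ and PWK/PhJ the region had the smaller share, 9.07% and 9.09%, against 12.1% and 11.9% elsewhere. The order was the same in each sample of these strains: the region lacked a larger share than the rest in every sample of A/J, DBA/2J, NOD/ShiLtJ, NZO/HlLtJ and WSB/EiJ, and a smaller share in every sample of 129S1/SvImJ, CAST/EiJ and PWK/PhJ.

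The gaps were unevenly spread over the segments. In the D and Q segment PWK/PhJ lacked 37.1% of the C57BL/6J positions, CAST/EiJ 25.2%, WSB/EiJ 20.8% and NOD/ShiLtJ 4.26%. In class II no position of 1459 was missing in 129S1/SvImJ, and 10.8 to 13.2% were missing in each other strain. The longest unbroken run was in CAST/EiJ, with 114 consecutive listed positions missing between 36145752 and 36167909, and DBA/2J lacked 82 at H2-Q2 between 35342562 and 35349183. In H2-Ab1, the beta chain of the class II molecule I-A, the same 34 positions from 34264900 to 34265045 formed a run in A/J, NOD/ShiLtJ and NZO/HlLtJ, and CAST/EiJ lacked 64 from 34264858 to 34267440.

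Counted in both directions and in bins of 200 kb, the gap of a pair varied along the region. 129S1/SvImJ and C57BL/6J had the smallest gap of all 36 pairs in each bin from 33700001 to 35500000, at 0 to 2.5%. Beyond that their gap varied: it was 15.9% from 35500001 to 35700000, 2.68% in the first of the last 8 bins, 35.5% from 36100001 to 36300000 and 0% from 36500001 to 36700000. A/J and DBA/2J had 40% in the bin from 34300001, in which class III begins and where the median pair had 34.4%. They had 6.53% in the bin from 34500001 and 0.693% in the next, so their class III count above covers both wide and narrow gaps. Their gap stayed at 1.22 to 1.35% to 35300000 and was 10.23% in the next bin, where the median pair had 29.6%. It fell to 1.61 and 0.665% in the following bins and reached 15.7% in the first of the last 8 bins. C57BL/6J and NOD/ShiLtJ had 9.01% in the bin from 34900001 and 0.559% in the next, which holds H2-D1, and 129S1/SvImJ and NOD/ShiLtJ had 0.558% there. A/J and NOD/ShiLtJ had the smallest gap of all pairs, alone or tied, in 7 of the last 8 bins. The bins were drawn after the data were seen.

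**Figure D5:**
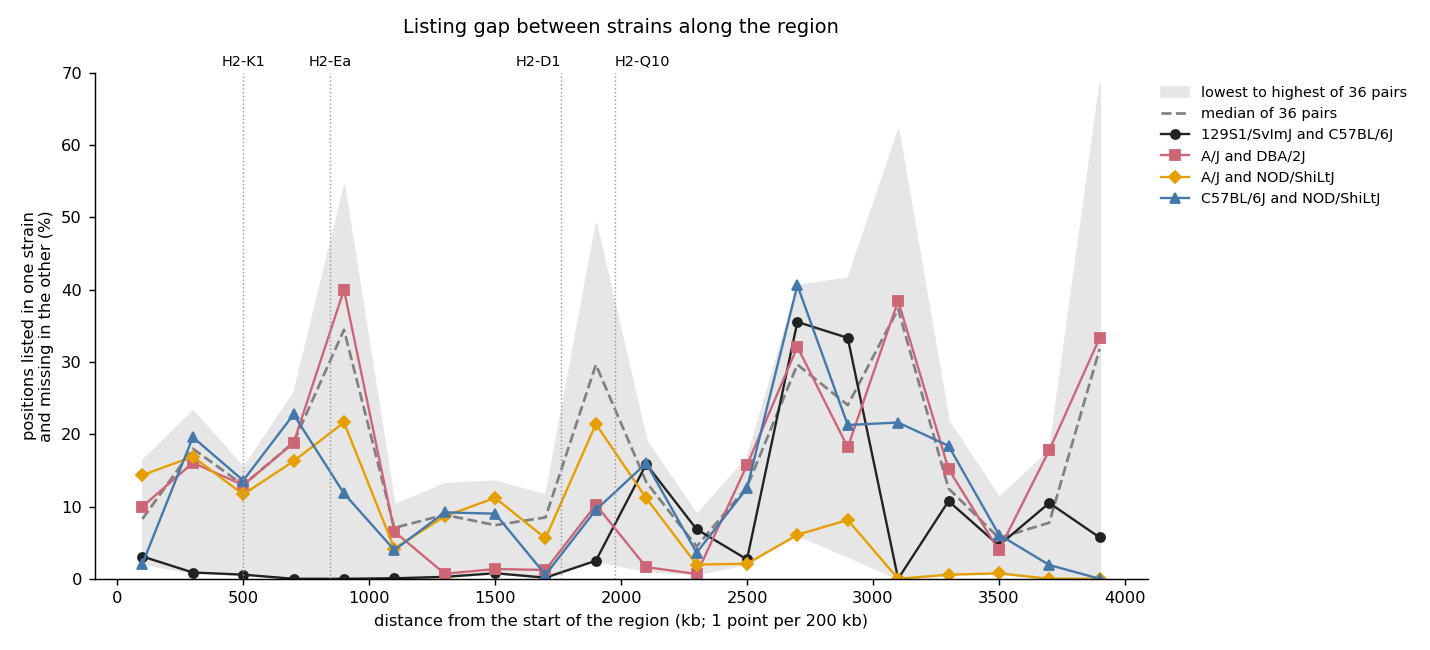
Listing gap (%) in bins of 200 kb against the distance from the start of the region in kb, for 4 strain pairs (lines), the median of 36 pairs (dashed) and their lowest to highest value (grey). The line of 129S1/SvImJ and C57BL/6J lies at the bottom from H2-K1 to H2-Q10 and moves between 0 and 35.5% beyond it, and that of A/J and NOD/ShiLtJ lies near the bottom over the last 1600 kb.

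Tile levels were also set beside the listing gaps around them. For each tested tile and pair the gap was taken over 50 kb to either side of the tile. In the 27 called tiles, 62 combinations of a tile and a pair had a local gap under 2%, and 1 of these (1.61%) differed by 25 points or more, whereas 170 of the 910 others (18.7%) did. Called tiles were chosen for wide spans, and over all 267 tested tiles the counts were 1 of 745 (0.134%) and 196 of 8866 (2.21%), with median differences of 2.26 and 2.90 points. Of the 62, 14 were 129S1/SvImJ and C57BL/6J and 48 came from 20 other pairs. The exception was C57BL/6J and PWK/PhJ at Tnxb, which differed by 34.7 points with a local gap of 1.93%. In the called tiles the median difference was 7.24 points where the gap was under 2% and 10.9 points elsewhere. The combinations share strains and neighbouring tiles, and the limit of 2% was chosen after the data were seen, so this is a description.

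Single tiles varied in this. 129S1/SvImJ and C57BL/6J, with local gaps of 0 to 0.292%, differed by 23.6 points at Wdr46, 20.04 at Tnxb, 18.7 at B3galt4 and 15.04 at C4b. Around Abhd16a the 3 pairs among 129S1/SvImJ, C57BL/6J and NOD/ShiLtJ had local gaps of 0.287, 0.688 and 1.37%. Their tile means differed by 0.839 to 6.62 points, and all 3 strains were in the higher group. A/J and DBA/2J had a local gap of 2.20% and differed by 6.03 points, but DBA/2J and WSB/EiJ, with a gap of 2.67%, differed by 48.9 points. Around Neu1 the 6 pairs among 129S1/SvImJ, A/J, C57BL/6J and DBA/2J had local gaps of 0.219 to 0.895% and differed by 0.359 to 4.52 points. NOD/ShiLtJ and PWK/PhJ, both high at Neu1, had a local gap of 7.59% and differed by 4.32 points. A like level thus also occurred without a low gap.

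C57BL/6J stood apart in 2 respects that touch these comparisons. Its files named the mitochondrial chromosome M where the other 8 strains used MT, and its median SD over samples at kept positions of 10 to 80% was 15.03 points, against 11.5 to 12.7 points in the other strains. The pair comparisons used a spread shared over all strains, so positions may have been called too often in pairs with C57BL/6J, which was not tested. Without the C57BL/6J samples 234 positions and 24 tiles of the region were called. A difference in processing behind the names cannot be told apart from a difference of the strain.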

How the data were processed

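Bisulfite sequencing libraries were made after MspI digestion with a NuGEN Ovation kit, per the labels' protocols. Trim Galore 0.6.3, Bismark 0.22 and Bowtie2 and the build GRCm38 are named in the submitters' processing notes. The deposited lists, 1 per sample, give a chromosome, a position and the percent methylation that the authors computed; they hold no read counts, so depth and the error of single values are unknown and no interval is given. Samples listed between 2904787 and 3156965 positions.

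Positions were joined over samples and tested after log2((percent + 5)/(100 − percent + 5)) with the moderated F test of limma, rewritten in numpy 2.4.6 to allow missing values, under Python 3.11.15. On 57387 tiles it was compared with limma 3.58.1 (R 4.3.3), and 0 tiles fell on different sides of the threshold. The code was tested on simulated data. Adjustment was Benjamini-Hochberg over all tested features of the genome. Mean levels were compared by permutation tests with 100000 resamples. Gene names, spans and promoters came from RefSeq (GRCm38.p6).

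The text names the 10 called tiles with the widest spans in which samples of the highest and lowest strain did not overlap, every called gene window, gene lists by count and range, and the pairs that share an allele or had the fewest or most calls. H2-Q10, Ppp1r11, DBA/2J with NZO/HlLtJ and A/J with NOD/ShiLtJ were added after their values were seen. The members, gene lists and haplotypes were chosen with earlier results of these data known. No genome sequence was used, so the sequences of the tiles are not shown. Other offsets, filters, spans, positions per tile and left-out samples were tried.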

Additional observations from a re-analysis of the deposited data

How the results depend on the processing

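Of 1285 recomputed values 1193 were labelled the same, 74 moved in size, 18 no longer passed the adjusted p and 0 reversed. For named tiles and windows the label rests on direction and adjusted p alone, and for the permutation tests on p. Size and the span settings did not enter there. Among the 1193 are 11 values of named windows that passed the adjusted p with a span under 25 points, so these calls were lost. Of the 11, 5 came with a sample left out and 6 with windows of 1000 bases to either side (Col11a2, BC051537, Gm32362, Pou5f1, Gm4577 and H2-M5). The 242 called positions became 154 with a span of 50 points and 157 without the 3 tiles at Wdr46, B3galt4 and Neu1, an alternative chosen after seeing the data. The same alternative gave 13 for 129S1/SvImJ and NOD/ShiLtJ (56), 22 for A/J and DBA/2J (34), 22 for DBA/2J and NOD/ShiLtJ (49) and 19 for C57BL/6J and NOD/ShiLtJ (89). With an offset of 1 the pair 129S1/SvImJ and C57BL/6J had 7 calls in place of 12, and A/J and DBA/2J had 13; with untransformed percent they had 28 and 56. With a span of 50 points A/J and DBA/2J had 11 and 129S1/SvImJ and NOD/ShiLtJ 37. The 27 called tiles became 66 with a span of 10 points, 5 with 50 points and 16 with at least 10 positions, and the 10 gene windows became 26 and 1 with spans of 10 and 50 points. The gap of 129S1/SvImJ from C57BL/6J was 5.01% for positions listed in at least 2 samples (6.44% elsewhere), and their mean absolute difference was 3.86 points over positions listed in all 27 samples and 12.8 points at means of 10 to 90%. Causes were not tested.

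Leaving out 1 sample gave 223 to 250 positions, 24 to 31 tiles and 9 to 12 windows. The pair counts ran from 11 to 29 for 129S1/SvImJ and C57BL/6J, 27 to 38 for A/J and DBA/2J, 37 to 53 for DBA/2J and NOD/ShiLtJ, 69 to 95 for C57BL/6J and NOD/ShiLtJ, and 42 to 62 for 129S1/SvImJ and NOD/ShiLtJ.

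Replicate numbers did not pair the samples: deviations of same-numbered samples had a mean correlation of 0.000801, and 6 of 27 samples matched best with their own number. With the replicate number as a block 205 positions, 19 tiles and 8 windows were called. The block ended the calls of the tiles in Tnxb (adjusted p = 0.0600 by limma) and Gm15321 (0.0672) and of the windows of BC051537 (0.0504) and Gm15321 (0.0507). Depth is unknown, so differences at single positions cannot be set against counting error.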
